A study of Mus musculus with 8 samples.

Results

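The genes described here encode the proteins of the cytosolic ribosome, and they were compared between luminal progenitors (LP) and mature luminal cells of the mouse mammary gland. They are the rows of the count table whose Entrez Gene ID carries a mouse symbol made of Rpl or Rps and a digit, together with Rpsa, Rplp0, Rplp1 and Rplp2. Rows named as pseudogenes and the S6 kinase genes, whose symbols start in the same way, were left out. This took 90 of the 24594 genes in the table, of which 54 belong to the large subunit and 35 to the small subunit by name. The remaining row, Rps19bp1, matches the naming pattern but encodes a nucleolar protein that binds RPS19 rather than a ribosomal protein. The subunit counts go by name alone. They take in copies with names of their own, such as Rps23rg1, and Rpl7l1, known for a part in ribosome assembly. They also take in Rps4l, which RefSeq lists as a transcribed pseudogene although its symbol does not say so.

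RNA was sequenced from 4 LP and 4 mature libraries of untreated wild type C57BL/6J mice. The cells were dissociated from mammary glands and sorted by flow cytometry. The labels list EpCAM, CD49f, cKit and CD14 as the sort markers, while the study's text tells the fractions apart by c-Kit alone, with more of it on LP, and the labels give no age for single animals. The methods call RNA-seq samples biological replicates but state fewer per condition than the libraries analysed here. The labels tie no library to a named mouse, so the p-values below measure the spread between libraries. The fractions are cell populations gated on surface proteins, and no gene was altered in either of them.

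A cytosolic ribosome is built from ribosomal RNA and a single copy of nearly every ribosomal protein, so these genes are produced in step with each other in most cells. Their mRNAs begin with a run of pyrimidines, the 5′ terminal oligopyrimidine (TOP) motif, through which mTOR signalling and the RNA-binding protein LARP1 adjust their stability and translation together. Mammalian genomes also hold many intronless copies of these genes, made by reverse transcription of the mRNA, and most of them are listed as pseudogenes.

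The TOP feature was looked for at the listed start sites, and 8 were chosen to show a long or a short run of pyrimidines. Each stretch holds 15 bases before and 15 from the RefSeq start in build GRCm38.p6, read 5′ to 3′ on the gene's strand, and capitals mark its longest run of C and T.
Rpl35: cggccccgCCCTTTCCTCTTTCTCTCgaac
Rps10: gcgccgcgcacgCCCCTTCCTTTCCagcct
Rps6: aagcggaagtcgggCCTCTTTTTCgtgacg
Rpl18: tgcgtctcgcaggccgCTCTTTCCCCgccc
Rps27: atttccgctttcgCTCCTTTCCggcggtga
Rps27l: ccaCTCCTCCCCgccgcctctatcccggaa
Rpl36al: caTTCCCgtcgctcaggttcagttccgact
Rpl7l1: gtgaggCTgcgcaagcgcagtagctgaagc
These stretches lie at chr2:39005117-39005146 (minus strand), chr17:27635230-27635259 (minus), chr4:86857353-86857382 (minus), chr7:45718056-45718085 (plus), chr3:90213634-90213663 (minus), chr9:66946071-66946100 (plus), chr12:69184053-69184082 (minus) and chr17:46782642-46782671 (minus). The longest run was 18 bases at Rpl35, 13 at Rps10 and 10 at both Rps6 and Rpl18. It was 9 at Rps27 and at Rps27l, for which RefSeq lists 2 starts, and only 5 at Rpl36al and 2 at Rpl7l1. At Rps27l, Rpl36al and Rpl7l1 it ended before the listed start, and at Rpl18 it began after it. Runs this short were also found at genes lower in LP, such as Rpl24 and Rps3a1 with 2 and Rplp0 with 5. Rps10, with its long run, did not pass the test between the fractions given below. RefSeq held a start for 69 of the 90 genes, and 29 of them, 42.0%, had a run of at least 8 pyrimidines in this window. The same was true of 13.9% of all 27025 genes with a listed start and of 15.2% of the 10164 among the tested genes.

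A second set of sequences shows why some rows cannot be told apart. RPS27 is a zinc finger protein of the small subunit, and it has a spliced gene on chromosome 3, an intronless copy, Rps27rt, on chromosome 9 and a spliced paralog, Rps27l, also on chromosome 9. A stretch of 51 coding bases, the length of 1 read, is given for each, with capitals at the positions where the spliced genes differ.
Rps27: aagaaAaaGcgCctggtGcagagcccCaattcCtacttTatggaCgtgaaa
Rps27rt: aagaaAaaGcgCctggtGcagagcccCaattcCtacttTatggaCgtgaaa
Rps27l: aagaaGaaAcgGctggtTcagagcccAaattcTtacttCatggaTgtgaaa
They lie at chr3:90213200-90213250 (minus strand), chr9:114982600-114982650 (minus) and chr9:66946882-66946932 (plus) in GRCm38. Over these 51 bases, Rps27 and its intronless copy differed at 0 positions, and Rps27 and Rps27l differed at 8. A read of this stretch therefore separates Rps27l from the other two, but not Rps27 from Rps27rt.

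Most ribosomal protein genes were lower in LP than in mature cells. Of the 90 genes, 87 had counts and passed the filter on low counts, and 76 of these were lower in LP at an adjusted p under 0.05, whereas 13.8% of all 12816 tested genes were. Only 1, Rpl7l1, was higher in LP, against 10.9% of tested genes, and 10 did not pass the test. The median log2 fold change, LP over mature, was -0.87 over the 87 genes, and the quartiles were -1.04 and -0.77. Over all tested genes the quartiles were -0.55 and 0.55. Every LP library was below every mature library for 75 of the 87 genes, as for 15.5% of tested genes, and above every mature library for 1, as for 14.0%.

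**Figure D1:**
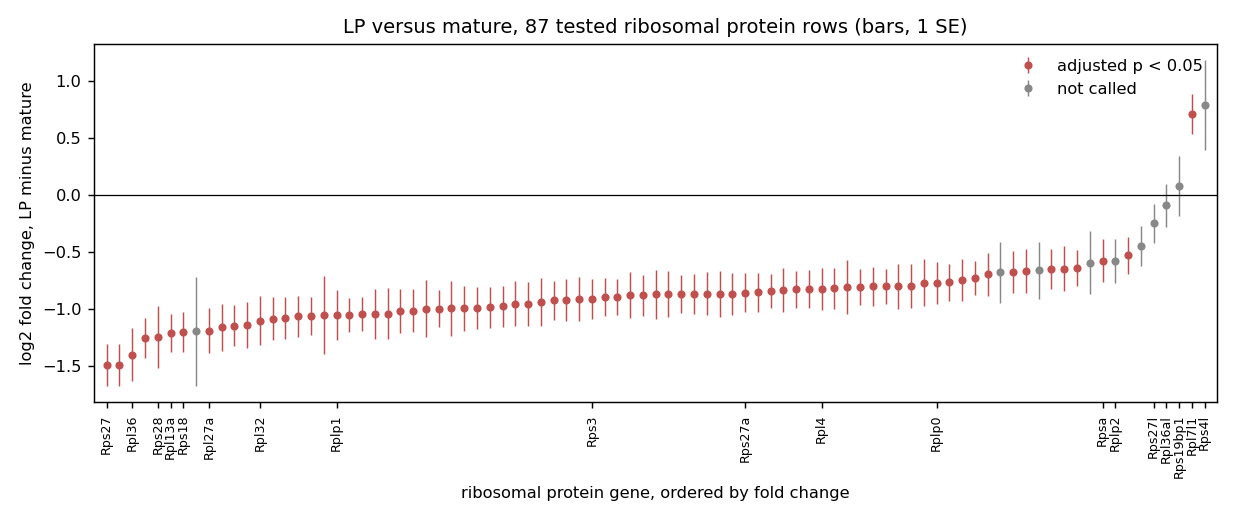
Log2 fold change of each of the 87 tested ribosomal protein genes, LP minus mature, in order of size, with bars of 1 SE from edgeR and names for some of the genes described in the text. Red points passed an adjusted p of 0.05, and all but Rpl7l1 of the red points lie below 0, from -1.49 for Rps27 upwards.

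The remaining 3 genes were listed with 0 counts in all 8 libraries. They were Rpl3l, Rpl10l and Rpl39l, paralogs known from striated muscle in the first case and from the testis in the other two. A count of 0 allows up to 3 counts per library, which is at most 0.788 CPM, in mature replicate 2, where CPM is counts per 1000000 of the TMM-scaled library size.

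Genes of both subunits were lower. Among all tested genes, 13.8% were lower and 10.9% were higher in LP. In the large subunit 47 of 51 tested genes were lower in LP, with a median log2 fold change of -0.87, and 1 was higher. In the small subunit 29 of 35 were lower and 0 were higher, with a median of -0.88. When the paralogs, the copies counted as genes of their own, and Rps19bp1 were set aside, 77 genes remained. All 77 had a negative log2 fold change, and 71 passed the test. This subset was formed with the values known and is given as a description. Every gene with a positive log2 fold change, namely Rpl7l1, Rps4l and Rps19bp1, was among those set aside.

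The ribosomal protein genes also took a smaller share of each LP library. Counts on the 90 rows made up 1.38, 1.43, 1.56 and 1.49% of all counts in LP replicates 1 to 4 and 1.79, 2.02, 2.85 and 2.89% in mature replicates 1 to 4. The groups did not overlap, and mature replicates 3 and 4 stood well above mature replicates 1 and 2. The mean was 1.46 ± 0.0777% in LP (SD, n = 4) and 2.39 ± 0.568% in mature cells (SD, n = 4), or 1.63 times as much in mature cells. The 95% Wilson interval of a single library's share was at most 0.0262 percentage points wide, and it covers counting error only, since amplified reads without molecular identifiers are not independent molecules. In bulk RNA, fewer cells of a type and less RNA per cell cannot be told apart. Per gene, the 4 mature libraries also ranked in this way: the median ribosomal protein gene stood, on the log2 scale, 0.07, 0.32, 0.67 and 0.70 above its own mean over all libraries in mature replicates 1 to 4, and -0.53, -0.47, -0.39 and -0.35 from it in the LP replicates.

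**Figure D2:**
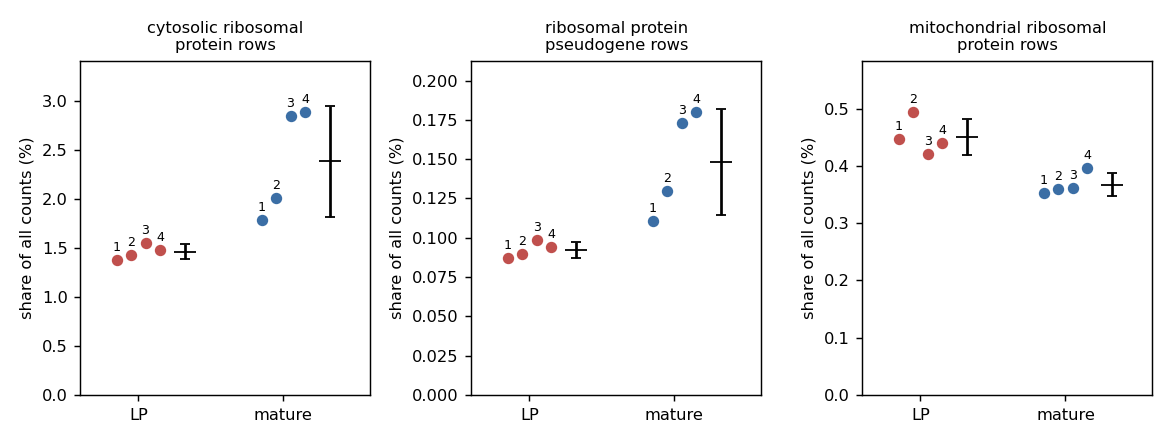
Share of each library's counts, in percent, on the 90 ribosomal protein rows, on 7 rows named as their pseudogenes and on 78 mitochondrial ribosomal protein rows. Points are libraries marked by replicate number, and the black bar gives mean ± SD of 4 libraries. The cytosolic rows and the pseudogene rows rise from LP to mature cells without overlap, and the mitochondrial rows lie lower in the mature libraries. These are shares of unscaled counts, and after TMM scaling the mitochondrial sums overlap between the fractions.

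Without mature replicates 3 and 4, a choice made after the data were seen, 50 of 87 genes were lower in LP, 1 was higher, and the median log2 fold change was -0.58. Leaving out mature replicate 3 or 4 alone left 66 lower genes in each case. Other values moved with the fractions as well, and 13.8% of all tested genes were lower and 10.9% higher in LP. The summed level of 22 dissociation and heat shock genes was 5391 to 7135 CPM in LP and 14009, 13578, 43917 and 15233 CPM in mature replicates 1 to 4, and of the 21 tested, 14 were lower and 1 was higher in LP. Mature replicates 3 and 4, close in their ribosomal protein share, thus differed widely in these genes. The nuclear transcript Malat1, often used as a sign of RNA quality, was at 2918, 2700.1, 4473 and 3803 CPM in the LP libraries and 11081, 13179.6, 15962 and 13562 CPM in the mature libraries (log2 fold change -1.95 ± 0.24, SE, adjusted p = 0.000569), and 3 of 5 tested genes of its list were lower in LP. The part of these differences in the ribosomal protein result was not tested.

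The cell type markers went with the labels, though the sort markers among them are no independent check. Of all tested genes, 13.8% were lower and 10.9% were higher in LP. Of 9 tested LP markers, such as Elf5 and the sort markers Kit and Cd14, 7 were higher in LP, and their summed level was 26677 to 41295 CPM in LP against 618 to 2975 CPM in mature cells. All 9 tested mature luminal markers, such as Pgr and Esr1, were lower in LP, where they summed to 730.3 to 1516 CPM against 5111 to 7454 CPM. Of 6 genes that both luminal fractions express, such as Krt8 and Epcam, 4 were lower and 0 higher in LP, and they summed to 12433 to 14098 CPM against 24438 to 44718 CPM. Marker lists of other cells held 0 called genes of 6 basal, 4 fibroblast, 1 endothelial, 2 immune and 1 adipocyte or erythroid genes tested. Basal markers summed to 36.3 to 88.8 CPM in LP and 22.2 to 118 CPM in mature cells, fibroblast markers to 7.49 to 41.7 and 27.1 to 179 CPM, and endothelial markers to 3.05 to 8.63 and 0.984 to 8.08 CPM. Immune markers summed to 42.0 to 57.0 CPM in LP and 11.5 to 47.3 CPM in mature cells, and adipocyte and erythroid markers to 1.87 to 84.2 and 6.30 to 65.5 CPM. Kdr, Cd3e and Cidec were at 0 in all libraries.

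Rps27 had the largest change of all members. Its level was 77.97, 73.5, 73.0 and 83.0 CPM in the LP libraries and 169, 199, 207 and 291 CPM in the mature libraries. All LP libraries were below all mature libraries, and the mean was 2.81 times as high in mature cells (log2 fold change -1.49 ± 0.18, SE, adjusted p = 0.000555). Its intronless copy Rps27rt was listed with the same values to within 2 reads in every library, with 7404 counts over all libraries for Rps27 and 7413 for Rps27rt. The pair is therefore read as a single measurement, so that 75 of 86 distinct measurements were lower in LP.

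The other genes with the largest differences came from both subunits. Rpl36, a large subunit protein, was at 47.6, 44.7, 69.1 and 58.8 CPM in the LP libraries and 95.6, 135, 159 and 192 CPM in the mature libraries (log2 fold change -1.40 ± 0.23, SE, adjusted p = 0.00213). Rps28, a small subunit protein at the exit of the mRNA channel, was at 28.3, 18.5, 29.7 and 43.1 CPM in the LP libraries and 54.4, 59.4, 78.4 and 91.9 CPM in the mature libraries (log2 fold change -1.25 ± 0.27, SE, adjusted p = 0.00797). In neither gene did an LP library reach the lowest mature library, but without mature replicates 3 and 4 the adjusted p of Rps28 was 0.0630.

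Rpl13a, which besides its place in the large subunit is known as a translational silencer of inflammatory mRNAs, was at 145, 153, 173 and 143 CPM in the LP libraries and 281, 331, 389.8 and 416 CPM in the mature libraries (log2 fold change -1.21 ± 0.17, SE, adjusted p = 0.000859). Rps18, in the head of the small subunit, averaged 212 ± 21.4 CPM in the LP libraries and 487 ± 83.5 CPM in the mature ones (mean ± SD, n = 4 each, log2 fold change -1.20 ± 0.17, SE, adjusted p = 0.00104). Both differences exceeded the spread between libraries. The last of the 8 largest, Rpl27a of the large subunit, averaged 47.6 ± 3.54 CPM in the LP libraries and 109 ± 27.3 CPM in the mature ones (mean ± SD, n = 4 each) and differed by -1.19 ± 0.20 (SE) on the log2 scale, with an adjusted p of 0.00213.

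Genes were also grouped by place in the ribosome, after the values were seen, and most genes of each group were lower. Over all ribosomal protein genes 76 of 87 were lower, and over all tested genes 13.8%. The groups are given as a description only. Proteins that line or surround the exit of the nascent peptide, RPL4, RPL17, RPL19, RPL23A, RPL26, RPL31, RPL35 and RPL39, were encoded by 8 genes that were all lower in LP, between -1.16 and -0.77. Rpl5 and Rpl11, whose products join the 5S ribosomal RNA and bind MDM2 when ribosome assembly is disturbed, were lower by similar amounts, with log2 fold changes of -1.05 ± 0.15 (SE) and -1.06 ± 0.18 (SE) and adjusted p of 0.00104 and 0.00231. Around the mRNA path of the small subunit, 4 of 5 genes were lower (Rps3, Rps23, Rps26 and Rps28), and Rps2 did not pass the test. In the head of the small subunit, 5 of 8 were lower, and Rps10, Rps12 and Rps29 did not pass.

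The 5 genes with the most counts held 28.1% of all ribosomal protein counts. Rplp0, the base of the stalk that recruits elongation factors, was at 1021, 1076, 1165 and 1231 CPM in the LP libraries and 1507, 1756, 2309.8 and 2092 CPM in the mature libraries (log2 fold change -0.77 ± 0.19, SE, adjusted p = 0.013). Rpl4, a large subunit protein that reaches into the exit tunnel, was at 976, 1010.2, 1203 and 1039 CPM in the LP libraries and 1505, 1755, 2272 and 1940.2 CPM in the mature libraries (log2 fold change -0.82 ± 0.18, SE, adjusted p = 0.00892). Both genes were higher in every mature library than in any LP library, but both calls were lost without the libraries numbered 2 or those numbered 4 (adjusted p of up to 0.0731 for Rplp0 and 0.0620 for Rpl4). Rpl32 of the large subunit averaged 548 ± 51.5 CPM in the LP libraries and 1177 ± 311 CPM in the mature ones (mean ± SD, n = 4 each, log2 fold change -1.10 ± 0.21, SE, adjusted p = 0.00457). Rps3, which lies at the mRNA entry and is also known for a part in DNA repair, averaged 533 ± 47.2 CPM in the LP libraries and 1001 ± 167 CPM in the mature ones (mean ± SD, n = 4 each, log2 fold change -0.91 ± 0.17, SE, adjusted p = 0.00431). These 4 were lower in LP without overlap between the fractions.

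Per kilobase of spliced transcript, levels were spread widely although the proteins are present in near equal numbers. In mature cells Rpl32, with 2276 CPM per kilobase, was the highest and Rpl41, with 1426, was also among the highest, and these genes stood at 1060 and 715 in LP. Among the lowest of the genes with introns were Rps12, with 11.97 CPM per kilobase in mature cells and 5.20 in LP, and Rpl12, a protein at the stalk base, with 24.4 and 12.3. These values are affected by how reads were placed, which is described further on.

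The stalk is built from RPLP0 and dimers of the acidic proteins RPLP1 and RPLP2. Rplp1 was at 150.1, 156, 154 and 160.1 CPM in the LP libraries and 211, 261, 405 and 408 CPM in the mature libraries (log2 fold change -1.05 ± 0.22, SE, adjusted p = 0.00626). Rplp2 was at 43.0, 43.8, 40.2 and 49.2 CPM in the LP libraries and 48.5, 60.7, 82.3 and 71.1 CPM in the mature libraries and just missed the threshold (log2 fold change -0.58 ± 0.19, SE, adjusted p = 0.0508). For Rplp2 the highest LP library, replicate 4, passed the lowest mature library, replicate 1, whereas for Rplp1 the fractions were apart. Its adjusted p was under 0.05 in 6 of the alternative fits, among them DESeq2 with 0.0434, so the stalk genes are not shown to differ in their change.

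Rpsa, a small subunit protein also described as a laminin receptor, was at 62.1, 59.4, 78.5 and 79.9 CPM in the LP libraries and 79.5, 93.0, 126 and 119 CPM in the mature libraries (log2 fold change -0.58 ± 0.19, SE, adjusted p = 0.0498). It was the only gene called lower whose fractions overlapped, and the call was lost in 16 alternative fits, with an adjusted p of up to 0.381 without mature replicates 3 and 4. Rps27a, which is made as a fusion with ubiquitin, was at 57.4, 53.8, 61.4 and 53.1 CPM in the LP libraries and 76.6, 98.0, 115 and 119 CPM in the mature libraries (log2 fold change -0.86 ± 0.17, SE, adjusted p = 0.00546). It was lower in every LP library than in any mature library.

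Among the 10 genes that did not pass the test, 6 had log2 fold changes between -1.20 and -0.45. Rps12 was measured at 3.05, 3.16, 3.98 and 1.94 CPM in the LP libraries and 3.94, 9.72, 6.93 and 7.38 CPM in the mature libraries (log2 fold change -1.20 ± 0.48, SE, adjusted p = 0.0928). Rps29 stood at -0.68 ± 0.26 (SE) on the log2 scale, Rps10 at -0.66 ± 0.25 (SE), Rpl38 at -0.59 ± 0.28 (SE) and Rps2 at -0.45 ± 0.18 (SE), with adjusted p between 0.0792 and 0.143, and Rplp2 is given above. All 6 had overlapping fractions. The other 4 were Rps27l, Rpl36al, Rps4l and Rps19bp1. Rps27l and Rpl36al are paralogs, Rps4l is listed by RefSeq as a transcribed pseudogene, and Rps19bp1 encodes no ribosomal protein.

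Several paralogs of ribosomal proteins had values unlike those of the genes they resemble. Rpl7l1 encodes an RPL7-like protein known for a part in ribosome assembly, and it was at 160.3, 169, 142 and 145 CPM in the LP libraries and 74.95, 83.0, 96.7 and 121 CPM in the mature libraries. Every LP library was above every mature library (log2 fold change 0.71 ± 0.17, SE, adjusted p = 0.0133). Rpl7 itself was at 293, 318, 344 and 349.7 CPM in the LP libraries and 493, 606, 639 and 601 CPM in the mature libraries and went the other way (log2 fold change -0.84 ± 0.15, SE, adjusted p = 0.00327). The call for Rpl7l1 was lost when both libraries numbered 1 or both numbered 2 were left out (adjusted p = 0.0891 and 0.0944).

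**Figure D3:**
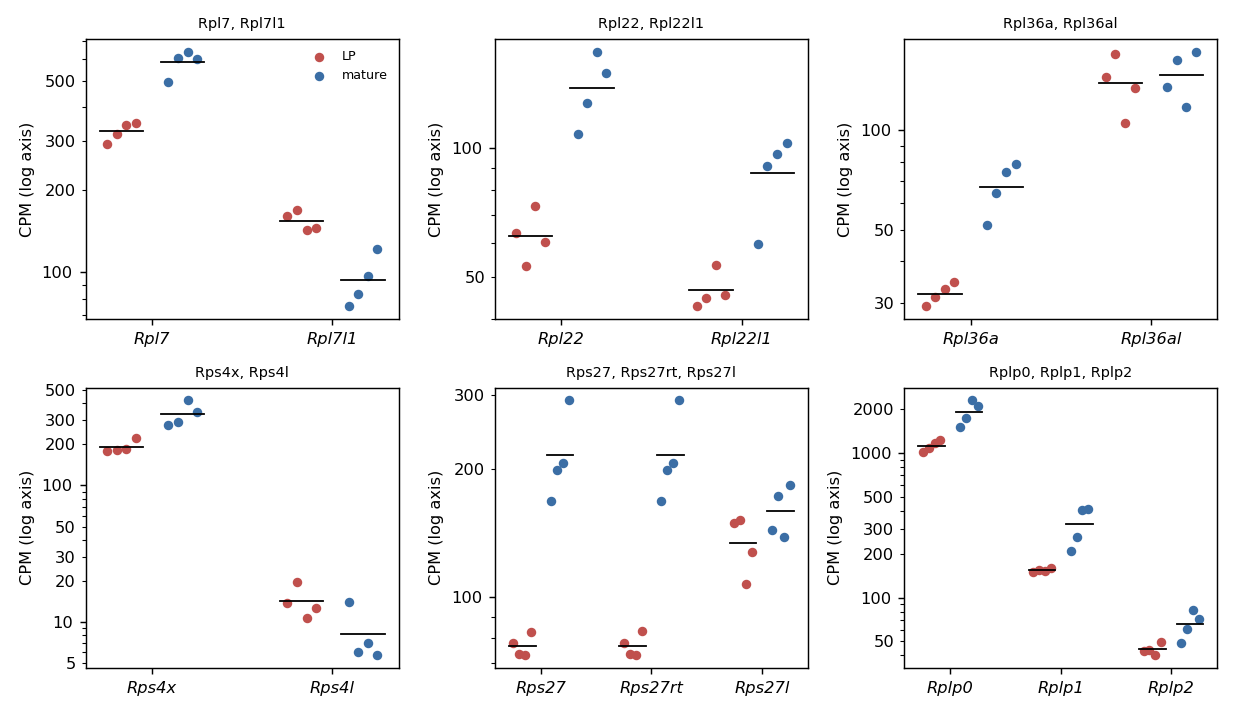
CPM of each library on a log axis for 5 sets of a ribosomal protein gene and its paralogs and for the 3 stalk genes, with LP in red, mature cells in blue and a black line at the group mean. Rpl7 and Rpl7l1 separate the fractions in opposite directions, while Rpl36al and Rps27l overlap between them.

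Rpl36al and Rps27l, both expressed in all libraries, showed no difference past the test. Rpl36al, whose product is nearly identical to RPL36A, was at 145, 170.4, 105.4 and 135 CPM in the LP libraries and 136, 164, 118 and 174 CPM in the mature libraries (log2 fold change -0.09 ± 0.19, SE, adjusted p = 0.773), and the fractions overlapped. Rpl36a, the X-linked gene, was at 29.2, 31.2, 32.9 and 34.5 CPM in the LP libraries and 51.6, 64.4, 74.6 and 79.1 CPM in the mature libraries (log2 fold change -1.08 ± 0.18, SE, adjusted p = 0.00246). Rps27l, known as a target of p53, was at 149, 152, 107 and 128 CPM in the LP libraries and 144, 173, 138 and 183 CPM in the mature libraries (log2 fold change -0.25 ± 0.17, SE, adjusted p = 0.31). Its LP and mature libraries overlapped too, in contrast to Rps27.

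Rps4l is an intronless relative of the X-linked Rps4x, and RefSeq lists it as a transcribed pseudogene. Rps4l was at 13.8, 19.7, 10.8 and 12.6 CPM in the LP libraries and 13.9, 6.04, 7.07 and 5.73 CPM in the mature libraries (log2 fold change 0.79 ± 0.39, SE, adjusted p = 0.169). Mature replicate 1 was the only mature library within the range of LP, and without it the adjusted p was 0.0489. Rps4x was at 178, 180.3, 185 and 221 CPM in the LP libraries and 278, 289, 419.5 and 347 CPM in the mature libraries (log2 fold change -0.80 ± 0.17, SE, adjusted p = 0.00759). Rpl22l1 moved with its partner: it was at 42.7, 44.7, 53.5 and 45.4 CPM in the LP libraries and 59.6, 90.9, 97.2 and 103 CPM in the mature libraries (log2 fold change -0.91 ± 0.20, SE, adjusted p = 0.00729), and Rpl22, an RNA-binding large subunit protein, was at 63.5, 53.2, 73.2 and 60.3 CPM in the LP libraries and 108, 128, 168 and 149.8 CPM in the mature libraries (log2 fold change -1.15 ± 0.18, SE, adjusted p = 0.00159). The call for Rpl22l1 was lost in 3 fits with fewer libraries (adjusted p of up to 0.0619).

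The ratio of a paralog to its partner within a library does not depend on scaling between libraries. The ratios were formed after the values were seen and are given without a test. Rpl7l1 counts divided by Rpl7 counts gave 0.413 to 0.547 in the LP libraries and 0.137 to 0.201 in the mature libraries (mean log2 ratio -1.08 ± 0.22 in LP and -2.66 ± 0.24 in mature cells, SD, n = 4 each). Rps27l over Rps27 gave 1.47 to 2.07 in the LP libraries and 0.631 to 0.867 in the mature libraries (mean log2 ratio 0.79 ± 0.24 in LP and -0.42 ± 0.24 in mature cells, SD, n = 4 each). Since reads may be counted on Rps27 and on Rps27rt or split between them, the ratio to their sum is also given, which was 0.734 to 1.03 in the LP libraries and 0.315 to 0.433 in the mature libraries. The fractions were apart in either form, but whether Rps27l had more or fewer reads than Rps27 in LP cannot be read from these counts. Rpl36al over Rpl36a gave 3.21 to 5.46 in the LP libraries and 1.58 to 2.63 in the mature libraries, also without overlap (mean log2 ratio 2.10 ± 0.35 in LP and 1.13 ± 0.33 in mature cells, SD, n = 4 each).

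Rps4l over Rps4x gave 0.0571 to 0.109 in the LP libraries and 0.0165 to 0.0501 in the mature libraries (mean log2 ratio -3.78 ± 0.44 in LP and -5.43 ± 0.75 in mature cells, SD, n = 4 each). Rpl22l1 over Rpl22 gave 0.673 to 0.841 in the LP libraries and 0.553 to 0.710 in the mature libraries (mean log2 ratio -0.42 ± 0.13 in LP and -0.67 ± 0.18 in mature cells, SD, n = 4 each), and it alone of the 5 pairs had overlapping fractions. The remaining partners, Rpl3 with 345 ± 25.7 CPM in the LP libraries and 615 ± 148 CPM in the mature ones (mean ± SD, n = 4 each), Rpl10 with 96.0 ± 8.02 CPM in the LP libraries and 159 ± 19.2 CPM in the mature ones (mean ± SD, n = 4 each) and Rpl39 with 29.6 ± 5.601 CPM in the LP libraries and 66.1 ± 11.4 CPM in the mature ones (mean ± SD, n = 4 each), had paralogs at 0 and were lower in LP, with log2 fold changes of -0.83, -0.73 and -1.16 (adjusted p = 0.0106, 0.00569 and 0.0028). Without both libraries numbered 2, the calls for Rpl3 and Rpl10 were lost, and that for Rpl3 also without both numbered 4 (adjusted p of up to 0.0637 for Rpl3 and 0.0548 for Rpl10).

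Rps19bp1, also called AROS and known to bind the deacetylase SIRT1, was at 28.2, 39.2, 25.2 and 30.7 CPM in the LP libraries and 31.8, 41.2, 23.5 and 20.5 CPM in the mature libraries (log2 fold change 0.08 ± 0.26, SE, adjusted p = 0.855). Its fractions overlapped, and its log2 fold change took either sign when single libraries were left out.

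Bowtie2 aligned the reads without splitting them across introns, so a read that spans an exon junction cannot align end to end to its gene but can align to an intronless copy. Of all 51-base windows in the spliced transcripts, a median of 71.2% lay inside 1 exon over the 87 tested genes, compared with 84.1% over 12195 tested genes with a GENCODE transcript. The ribosomal protein transcripts were shorter, with a median of 799 bases against 2886, and had 5 exons against 9. Of the windows inside 1 exon, a median of 37.4% was found letter for letter in the transcript of another gene. Of the 90 genes, 86 shared a window, inside 1 exon or across a junction, with at least 1 annotated pseudogene. The median was 8 pseudogenes, and the most was 119, for Rpl7a. Of the windows across a junction, a median of 67.7% was present in a copy.

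Genes with many and genes with few windows inside 1 exon and in no other annotated gene were both mostly lower in LP. This share rests on 1 chosen transcript per gene, which was 5179 bases long for Rps15a and 3706 for Rps20. Long stretches outside the coding part can raise it, and unannotated copies were not searched. It therefore does not show which genes were read apart from their copies, and the effect of misplaced reads was not tested. Among 34 genes with at least 50% of windows inside 1 exon and in no other gene, 28 were lower, 1 was higher, and the median log2 fold change was -0.92. Among 31 genes with 20 to 50% of such windows, 29 were lower with a median of -0.87, and among 22 with under 20%, 19 were lower with a median of -0.87. Rpl22, with 90.6% of windows inside 1 exon and in no other gene, and Rps3, with 81.1%, were lower in LP. At the other end, Rps27 had 0%, Rpl10 1.74% and Rpl36a 3.70%. The Spearman correlation of the log2 fold change with this percentage was 0.05 over the 87 genes, which share libraries and are not independent.

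**Figure D4:**
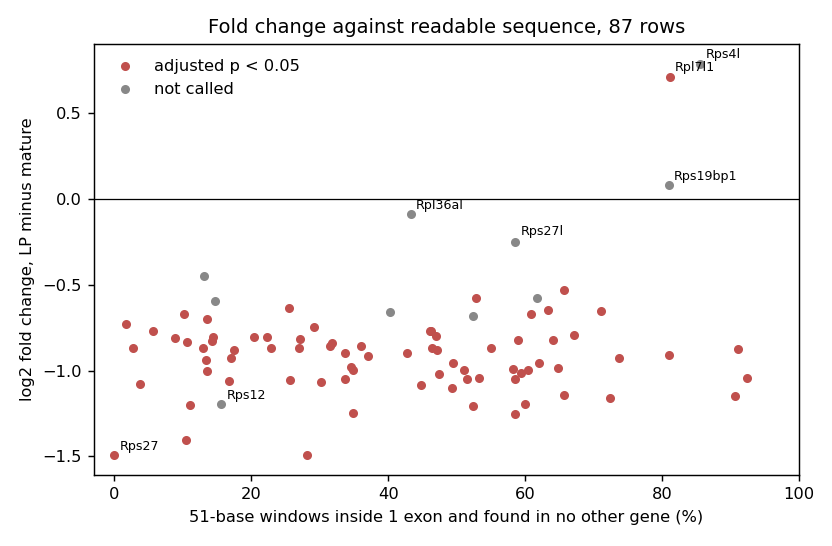
Log2 fold change, LP minus mature, of 87 ribosomal protein genes against the percentage of 51-base windows of the transcript that lie inside 1 exon and occur in no other annotated transcript. Lower genes are found over the whole range, and the 4 labelled genes closest to or above 0 on the right, Rpl7l1, Rps4l, Rps19bp1 and Rps27l, each have over 50% of such windows.

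The 7 rows named as pseudogenes also carried reads. All 7 had lower values in every LP library than in any mature library, as did 15.5% of all tested genes. Of the 7, 6 were lower in LP at an adjusted p under 0.05, against 13.8% of all tested genes. These rows can hold reads of their parent genes and are not taken as separate measurements. Rps18-ps4 was at 145, 157, 181 and 181 CPM in the LP libraries and 305, 374, 414 and 441 CPM in the mature libraries (log2 fold change -1.21 ± 0.17, SE, adjusted p = 0.000859), and its counts were 0.742 to 0.799 of those of Rps18 in LP and 0.769 to 0.814 in mature cells. Rplp2-ps1 had 3.16 to 3.78 times the counts of Rplp2 in LP and 3.26 to 3.55 times in mature cells, and Rpl14-ps1 had 1.39 to 1.53 times and 1.47 to 1.52 times those of Rpl14. In both cases the copy held more reads than its parent, and the ratio overlapped between the fractions.

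Some copies carry gene names of their own. Rpl37rt had 2.91 to 3.41 times the counts of Rpl37 in LP and 3.08 to 3.19 times in mature cells, and Rpl32 had 2.996 to 3.32 times and 2.95 to 3.12 times those of Rpl32l. Rps23rg1, which derives from Rps23, averaged 71.5 ± 3.64 CPM in the LP libraries and 127 ± 24.9 CPM in the mature ones (mean ± SD, n = 4 each) beside 69.3 ± 7.81 CPM in the LP libraries and 127 ± 28.5 CPM in the mature ones (mean ± SD, n = 4 each) for Rps23. How the deposited counts treated reads that match several places is not given in the sources used here, so the split of reads between a gene and its copy is uncertain, and a read may have been counted on both. When the pseudogene rows were added to their parents, 77 genes were lower and the median was -0.87.

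Cytosolic ribosomal proteins named outside the pattern went the same way. Fau, a fusion of a ubiquitin-like protein with RPS30, was at 471, 449.5, 488 and 507 CPM in the LP libraries and 851, 1036, 1001 and 1263 CPM in the mature libraries (log2 fold change -1.12 ± 0.17, SE, adjusted p = 0.00131). Rack1, a scaffold on the small subunit, was at 215, 225, 251 and 213 CPM in the LP libraries and 293, 337, 375 and 381 CPM in the mature libraries (log2 fold change -0.62 ± 0.15, SE, adjusted p = 0.0126). Both were lower in LP without overlap.

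mRNAs of other genes with a TOP motif were lower as well. Of 24 tested, which include Fau, Rack1 and several elongation and initiation factors, 17 were lower in LP and 0 were higher, with a median log2 fold change of -0.89. The shares among all tested genes were 13.8% lower and 10.9% higher. The largest difference was that of Snhg1, a host gene of small nucleolar RNAs, with 5.95, 4.6, 3.15 and 4.16 CPM in the LP libraries and 17.4, 19.2, 21.7 and 22.6 CPM in the mature libraries (log2 fold change -2.17 ± 0.32, SE, adjusted p = 0.00122). All 24 had a negative log2 fold change, and 7 did not pass the test.

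Among genes for translation factors and their modifiers, more were lower than higher in LP. Of all tested genes, 13.8% were lower and 10.9% were higher. Of 10 genes for elongation factors and enzymes that modify them, 4 were lower, led by Eef1a1, which delivers aminoacyl-tRNA (log2 fold change -1.12 ± 0.20, SE, adjusted p = 0.00338). The 1 higher gene, Eef1akmt1, encodes a methyltransferase that acts on eEF1A and is not itself an elongation factor (log2 fold change 1.48 ± 0.30, SE, adjusted p = 0.00609). Of 38 initiation factor genes, 13 were lower and 3 were higher, with a median of -0.38. Eif4a2, an RNA helicase, fell most (log2 fold change -1.82 ± 0.23, SE, adjusted p = 0.000587), and Eif4ebp2, a repressor of cap binding, rose most (log2 fold change 1.29 ± 0.22, SE, adjusted p = 0.00248).

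**Figure D5:**
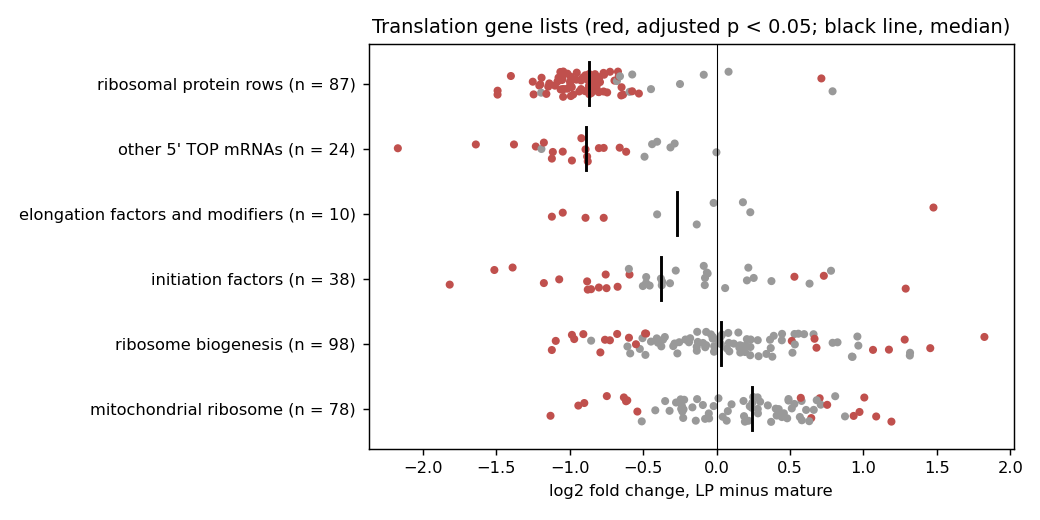
Log2 fold change, LP minus mature, of every tested gene in 6 lists (one row of points per list, n in brackets, spread vertically for legibility), with red for an adjusted p under 0.05 and a black line at the median. The ribosomal protein and TOP lists lie almost wholly below 0, while ribosome biogenesis and mitochondrial ribosomal proteins lie on both sides.

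Genes for the assembly of ribosomes were called in shares close to those of all genes. Of 98 tested biogenesis factors, 13 were lower and 8 were higher in LP, near the 13.8% lower and 10.9% higher among all tested genes, and the median log2 fold change was 0.03. Nop58, a core protein of box C/D small nucleolar particles, was the lowest (log2 fold change -1.12 ± 0.21, SE, adjusted p = 0.00417), and Polr1e, a subunit of RNA polymerase I, the highest (log2 fold change 1.82 ± 0.39, SE, adjusted p = 0.00755). The mitochondrial ribosome is a separate particle with its own proteins. Of its 78 genes, 8 were lower, led by Mrps6 (log2 fold change -1.13 ± 0.21, SE, adjusted p = 0.00374), 9 were higher, led by Mrpl41 (log2 fold change 1.19 ± 0.26, SE, adjusted p = 0.00729), and the median was 0.24. These counts too were near the shares among all tested genes. Together the 78 took 0.451 ± 0.0314% of counts in LP (SD, n = 4) and 0.367 ± 0.0198% in mature cells (SD, n = 4). After TMM scaling their summed levels overlapped, with 3844 to 4594 CPM in LP and 3725 to 4158 CPM in mature cells.

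Of 20 tested genes for transcription factors and mTOR components that act on ribosome production, 5 were lower and 2 were higher in LP. The shares among all tested genes were 13.8% lower and 10.9% higher, so a list this short is not shown to differ from them. Mycl, a MYC family transcription factor, was at 8.28, 2.88, 0.996 and 1.66 CPM in the LP libraries and 30.7, 24.2, 16.3 and 14.9 CPM in the mature libraries (log2 fold change -2.63 ± 0.60, SE, adjusted p = 0.01). Mlst8, a subunit of both mTOR complexes, was at 24.8, 32.6, 13.4 and 19.7 CPM in the LP libraries and 4.50, 7.35, 1.59 and 3.77 CPM in the mature libraries (log2 fold change 2.42 ± 0.47, SE, adjusted p = 0.00472). Neither gene showed overlap between the fractions. Hspa1b, whose near-identical neighbour Hspa1a can share its reads, had the largest difference among the dissociation and heat shock genes (log2 fold change -4.38 ± 1.01, SE, adjusted p = 0.01), and Ier2 was the only one of them higher in LP (log2 fold change 1.40 ± 0.20, SE, adjusted p = 0.00102). Snhg11 had the largest among the nuclear RNAs (log2 fold change -4.15 ± 0.46, SE, adjusted p = 0.000415).

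Other letter patterns were sought in the 300 bases from 250 before to 50 after each start, on the strand of the gene and its complement. CTCTTTC was present in 18 of 69 ribosomal protein promoters, 26.1%, in 9.28% of all promoters and in 8.64% of those of tested genes. CCGGAAG, which ETS family factors such as GABPA can bind, was present in 37.7%, 9.93% and 19.96%. Neither pattern was found at Rpl7l1 and Rpl36al, nor at genes lower in LP such as Rps27, Rpl4 and Rplp0. Rps27l, which did not pass the test between the fractions, held CCGGAAG. No match says only that these letters are absent from this window.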

How the data were processed

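The authors used cutadapt 4.2 for trimming and Bowtie2 (2.3.5.1 per the labels) for alignment to mm10, and they deposited whole-number counts for each gene with no normalization. The counting program, its annotation and its use of strand are not given in the sources used here. Libraries held 4410049 to 7791593 counts, which sets the counting error; 24570 IDs matched a RefSeq symbol. The members and gene lists were chosen with earlier results of these data known, and groups by place in the ribosome after the values were seen. All genes entered a single fit with edgeR 4.0.16 in R 4.3.3 (TMM, filterByExpr by group, quasi-likelihood F test, 4 LP against 4 mature libraries, no covariate), with Benjamini-Hochberg adjustment over 12816 genes and a threshold of 0.05. Each SE was taken from the fold change and F as |log2 fold change| / √F. CPM is per TMM-scaled library size with no added count. Named genes were up to 8 per direction with the largest change among called members of at least 1 log2 CPM, the 5 with the most counts, the stalk genes, Rpsa, Rps27a, the paralog sets, Rps19bp1, and outside the rule Fau, Rack1 and the most changed called gene per list and direction; Rpl5, Rpl11, Malat1, Rps23, the pseudogene rows and the untested or uncalled members were added after their values were seen. Some genes that the rule takes in are not reported here. Windows came from GENCODE M21 transcripts and start sites from RefSeq (GRCm38.p6). DESeq2 1.42.0 was used for an alternative and scipy 1.17.1 for intervals.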

Additional observations from a re-analysis of the deposited data

Results flagged for a closer look

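With 4 libraries in a group, a library was singled out where its distance to the nearest other library took up more of the group's range than Dixon's 95% critical value allows. Chance singles out about 1 group in 20, or 3.1 of the 62 groups examined, and 2 were found. In LP, Rps4x was at 178, 180.3, 185 and 221 CPM in replicates 1 to 4, and replicate 4 lay apart with a ratio of 0.830. In mature cells, Rps4l was at 13.9, 6.04, 7.07 and 5.73 CPM, and replicate 1 lay apart with a ratio of 0.836.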

How the results depend on the processing

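Against 76 genes lower in LP, 11 alternatives with all libraries (other scaling, tests and filters, thinning, a replicate block, pseudogene rows added) gave 68 to 77, with 1 higher gene in each, medians of -0.89 to -0.81, and 5 or 6 of 7 pseudogene rows lower. Leaving out single libraries or same-numbered pairs gave 50 to 78 lower genes, 0 to 2 higher genes, medians of -0.97 to -0.78 and 3 to 6 pseudogene rows. The lowest count came without both libraries numbered 2, where 6.79% of all tested genes were lower. Without mature replicates 3 and 4 the values were 50 genes and 3 pseudogene rows. The cause of these changes was not tested, though fewer libraries entered these fits. The replicate block gave 75 lower genes and 1 higher. Same-numbered libraries correlated at 0.11, 0.06, 0.15 and 0.08 in their deviations, not all over 0.1, and the main fit did not treat the numbers as pairs. Yet every LP library correlated best with its own number, and over the ribosomal protein genes alone the values were 0.16, 0.36, 0.44 and 0.28. The library names also carry a further number shared by an LP and a mature library, whose meaning is not given. Whether the libraries are paired is therefore not settled, and the p-values and SEs of the main fit leave any pairing out. The log2 fold change of Rpl36al ranged from -0.196 to 0.029 with single libraries left out and was 0.023 without both numbered 4, and that of Rps19bp1 ranged from -0.053 to 0.308 and was -0.193 without mature replicates 3 and 4. The mean share in LP was 1.62% without the 100 genes with the most counts and 1.55% with the pseudogene rows, and 1.43 to 1.49% with single libraries left out. In mature cells it was 2.75%, 2.54% and 2.22 to 2.59%. The median of windows inside 1 exon was 80.1% for 36-base and 57.4% for 76-base windows.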
